A study of Mus musculus and Homo sapiens with 6 samples.

Results

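The nuclear genes of the respiratory chain were examined in 4 ATAC-seq libraries of NMuMG cells, an epithelial line from mouse mammary gland. ATAC-seq marks open chromatin by the insertion of sequencing adapters by the Tn5 transposase. The members were all nuclear protein-coding mm10 genes whose symbol starts with Nduf, Uqcr, Sdh followed by a to d, Cox4i, Cox5, Cox6, Cox7, Cox8 or Atp5, and 100 of 21887 nuclear protein-coding genes met this rule. They comprise 77 subunits used in most cells, 8 tissue-restricted subunit isoforms, 13 assembly factors and regulators, and 2 paralogs of Ndufb4 with no assigned class. The cell numbers put into the assay were 25000, 50000, 75000 and 100000, and a single library stands for each. Values for the 4 libraries are given in this order throughout. The cells of every library were NMuMG, which is also the only genotype the labels give, at fewer than 10 passages and labelled as time 0h, grown in DMEM with bovine serum, and no treatment beyond culture is named. They were lysed in a Triton X-100 buffer before the Tn5 step. With 1 library per cell number, values carry no replicate error and cell numbers were not tested against each other. The 2 MDA-MB-231 samples of the series, labelled GATA3, were not used here.

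The respiratory chain lies in the inner mitochondrial membrane. Complex I (NADH dehydrogenase) and complex II (succinate dehydrogenase) pass electrons to ubiquinone, complex III passes them to cytochrome c, and complex IV (cytochrome c oxidase) passes them to oxygen, while complex V (ATP synthase) uses the resulting proton gradient to make ATP. Mitochondrial DNA encodes several membrane subunits of complexes I, III, IV and V, and the nucleus encodes all other subunits and the whole of complex II. Most nuclear subunit genes are active in nearly every cell, but several subunits of complex IV have a second gene used mainly in muscle, testis, lung or hypoxic cells. The transcription factors NRF1, GABPA, YY1 and SP1 are known to act on many of these genes.

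Each library is represented by the authors' list of peaks, with 38878, 43832, 41509 and 45530 peaks and a score from 8 up. The median score was 15 or 16. The score ranks peaks within a list, and a gene without a listed peak may have signal below the lowest score. The lists hold no read counts, so the depth is unknown, and its part in the length of a list cannot be told apart from that of cell number. Of 8 epithelial marker genes, 6 had a peak within 1 kb of a gene end in all 4 libraries, compared with 43.9% of all nuclear protein-coding genes. Epcam and Cldn3 had none in any library, like 47.4% of all nuclear protein-coding genes. None of the 4 blood markers had a peak at an end or inside the gene, which was also the case for 35.8% of all nuclear protein-coding genes.

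Most respiratory chain genes carried a peak at a gene end in every library. A peak that overlapped the 1 kb to either side of an annotated end of the gene was found in all 4 libraries at 80 of the 100 genes, in 1 to 3 libraries at 10 and in none at 10. Among all nuclear protein-coding genes, 43.9% had such a peak in all 4 libraries, 8.77% in some and 47.4% in none. When peaks inside the gene were also counted, 84 members had a peak in all 4 libraries, where 54.5% of protein-coding genes did, and 8 had none in any, where 35.8% of protein-coding genes had none. Per library, 80, 87, 85 and 87 members had a gene-end peak, where 46.9%, 48.9%, 48.3% and 49.5% of all protein-coding genes had one. The share of 80.0% lay between those of 2 other families of broadly used genes counted in the same way, 65 of 78 mitochondrial ribosomal protein genes (83.3%) and 40 of 51 proteasome subunit genes (78.4%).

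**Figure D1:**
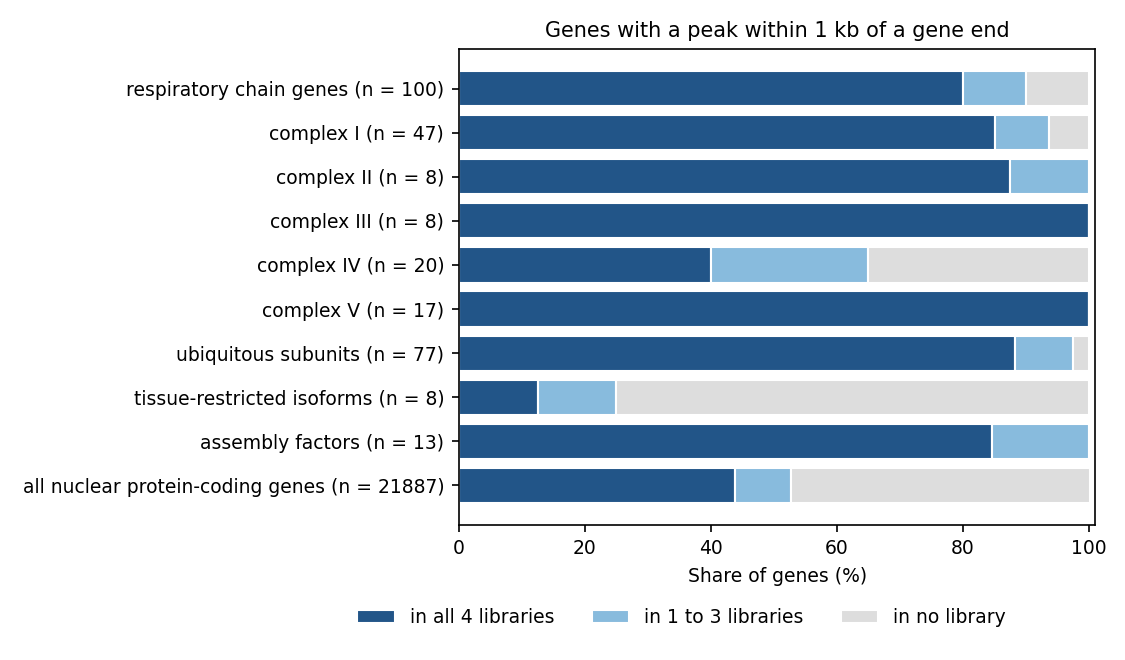
Share of genes (x axis, percent) that had a gene-end peak in all 4, in 1 to 3 or in none of the libraries, for the respiratory chain genes, for each complex and class, and for all nuclear protein-coding genes at the bottom. Only complexes III and V are filled to 100% by genes with a peak in all 4 libraries. The lowest such shares are those of the tissue-restricted isoforms (12.5%) and complex IV (40.0%).

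Of the 10 genes without a gene-end peak in any library, 7 belong to complex IV. Gene-end peaks were present in every library at all 8 genes of complex III and all 17 of complex V. They were also present at all 4 subunits of complex II and 3 of its 4 assembly factors. In complex I, they were present at 33 of 37 subunits in general use and 7 of 8 assembly factors. In complex IV, 6 of 11 subunits in general use and 1 of 8 tissue-restricted isoforms had one, as did Cox7a2l, which joins complexes III and IV into supercomplexes. Of the 11 subunits of complex IV in general use, 8 had a peak in all 4 libraries once peaks inside the gene were counted. All 77 subunits in general use had a listed peak at an end or inside the gene in at least 1 library.

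The peaks of these genes were common but, at the median, scored slightly below the gene-end peaks of all protein-coding genes. The highest gene-end peak of the members that had one scored 23, 31, 28 and 30 at the median, compared with 26, 32, 30 and 33 for all protein-coding genes with a gene-end peak. A score of 50 or more was reached by 9, 20, 15 and 19 members, or 11.2%, 23.0%, 17.6% and 21.8% of those with a peak, compared with 17.1%, 27.4%, 22.8% and 28.6% of all protein-coding genes with one. For the 80 members found in all 4 libraries, the score of the highest gene-end peak was expressed as its percentile among all peaks of the same list and averaged over the libraries. The median of this mean percentile was 72.9, and it was 79.3 over all protein-coding genes found in all 4 libraries. The lower rank was not particular to the members. The same median was 74.6 for the mitochondrial ribosomal protein genes and 70.9 for the proteasome subunit genes. Among the members, the mean percentile ranged from 21.2 to 99.6. No test was made of these differences, since the members are not replicates.

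**Figure D2:**
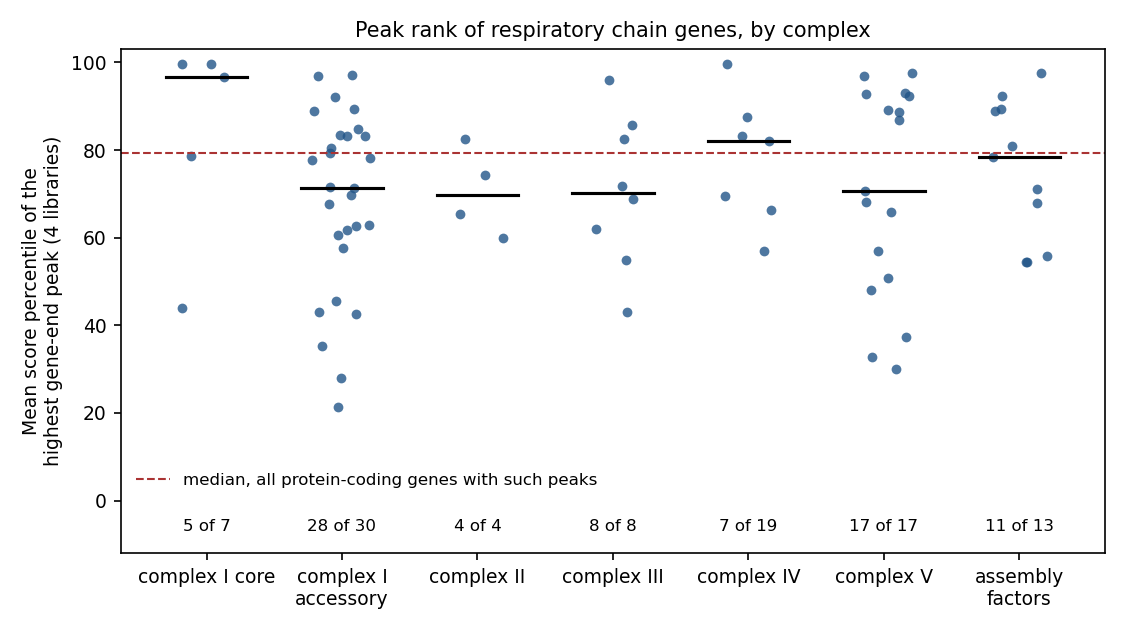
Mean score percentile (y axis) of the highest gene-end peak over the 4 libraries, with 1 point per gene found in all 4, black lines at the medians of each class and the number of such genes of all genes in the class below. The dashed line is the median of 79.3 over all protein-coding genes found in all 4 libraries. Most classes spread widely on the scale, with complex I accessory subunits reaching down to 21.2, while the subunits of complex II span 59.9 to 82.6.

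Among the core subunits of complex I, which hold its flavin and iron-sulphur centres, peaks of 2 genes on chromosome 19 ranked highest. Ndufs8, an iron-sulphur subunit, scored 87, 130, 156 and 160. Ndufv1, which binds the flavin that accepts electrons from NADH, scored 108, 126, 108 and 157. Their mean percentiles were 99.6 each, and both lay over the transcription start. Ndufv2, another iron-sulphur subunit, scored 49, 84, 80 and 78. Ndufs7, which carries the last iron-sulphur centre before ubiquinone, scored 19, 40, 35 and 39, while Ndufs1, the largest subunit of the complex, had low scores of 9, 15, 18 and 18. Ndufs3 had no gene-end peak at 25000 cells and scored 12, 20 and 11 in the other libraries.

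The accessory subunits of complex I, which surround the core and are needed for its assembly and stability, had gene-end peaks throughout at 28 of 30 genes. The highest were Ndufv3 (65, 81, 70 and 77), Ndufa6 (69, 63, 74 and 86) and Ndufa5 (47, 54, 59 and 48). The exceptions were Ndufa1, a small membrane subunit encoded on the X chromosome, with a score of 12 at 50000 cells only, and Ndufa9, with a score of 8 at 100000 cells only. Scores were mostly low at Ndufs4 (9, 8, 13 and 10), Ndufc2 (8, 18, 9 and 12) and Ndufs5 (13, 14, 8 and 16), which were picked out after their values were seen. The lowest score in the lists is 8, close to several of these values, while the 18 of Ndufc2 at 50000 cells lay above the list median of 16. The paralogs Ndufb4b and Ndufb4c, annotated spans of 471 and 485 bp, had no peak at or in the gene, whereas Ndufb4 itself scored 29, 30, 35 and 37. The peak nearest to Ndufb4b lay 33.1 to 41.2 kb away and that nearest to Ndufb4c 22.1 to 53.6 kb away.

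The assembly factors, which build the complexes but do not stay in them, had gene-end peaks in every library at 10 of 12 genes, and 11 of 13 with Cox7a2l. Ndufaf8 had the highest, with 57, 90, 94 and 83, followed by Ndufaf7, a methyltransferase needed to assemble complex I, with 42, 67, 47 and 58. Sdhaf1, needed to insert the iron-sulphur centres of complex II, scored 37, 45, 44 and 58. Ndufaf1 had peaks in only 2 libraries, scoring 14 at 50000 and 17 at 100000 cells. Sdhaf4 had none at 25000 cells and scored 21, 19 and 9 in the other libraries. Ndufs3, Sdhaf4 and Ndufa4l2 were the 3 members whose gene-end peak was missing at 25000 cells only, and no member was missing from only 1 of the other lists. Over all protein-coding genes, 390 were missing only from the 25000-cell list and 116, 182 and 77 only from the 50000-, 75000- and 100000-cell lists. The 25000-cell list is the shortest, and whether depth or cell number sets this was not tested.

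The subunit genes of complexes II and III all had gene-end peaks throughout. Succinate dehydrogenase belongs to the citric acid cycle as well as to the chain. Its iron-sulphur subunit gene Sdhb scored 32, 38, 42 and 30, its flavoprotein gene Sdha 19, 21, 25 and 22, and its membrane anchor genes Sdhd 22, 31, 27 and 30 and Sdhc 13, 23, 16 and 33. In complex III, Uqcrq, which encodes a small subunit, had the highest scores, at 51, 83, 65 and 71. The Rieske iron-sulphur protein gene Uqcrfs1 scored 30, 39, 43 and 48, and the core protein gene Uqcrc1 30, 47, 30 and 36. The hinge protein gene Uqcrh had the lowest mean percentile of the complex, at 43.0, with scores of 10, 12, 19 and 17.

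In complex V the peaks spanned most of the scale. Atp5g1, which encodes a subunit of the rotating c ring, scored 54, 128, 86 and 79, and the other c ring genes Atp5g2 and Atp5g3, which encode the same mature protein, scored 23, 35, 21 and 23 and 21, 23, 23 and 26. Atp5md, a small subunit of the membrane part, scored 75, 80, 72 and 62. Of the catalytic head, the beta subunit gene Atp5b scored 42, 76, 62 and 48 and the alpha subunit gene Atp5a1 16, 22, 13 and 14. At the other end of the range were Atp5o, part of the stalk that holds the head in place, with 10, 20, 8 and 11, and Atp5l, with 9, 12, 13 and 13. Genes whose products form fixed ratios in the enzyme thus had peaks of quite different rank. A peak score is not a measure of transcript or protein level.

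Isoforms of complex IV subunits differed in their peaks. In complex IV, 6 of 11 subunits in general use had a gene-end peak throughout, compared with 1 of the 8 tissue-restricted isoforms, which all belong to this complex. Across all complexes, 68 of the 77 subunits in general use had one, as did 43.9% of all protein-coding genes. None of the tissue-restricted group but Cox7a1 and Ndufa4l2 had a listed peak at an end or inside the gene. Cox4i1 scored 12, 34, 33 and 33, and its lung and hypoxia isoform Cox4i2 had no peak. Cox6a1 scored 16, 19, 20 and 17, and the heart and muscle isoform Cox6a2 had no peak. Cox8a, with the highest scores of complex IV at 87, 166, 128 and 144, contrasted with the muscle isoform Cox8b and the testis isoform Cox8c, which had none. The testis isoforms Cox6b2 and Cox7b2 had no peak either, but their partners in general use were themselves weak. Cox6b1 scored 10 at 75000 and 12 at 100000 cells, and Cox7b 13 at 50000 and 10 at 75000 cells. For the isoforms without a peak, the distance to the nearest one varied widely. It was as short as 1.36 kb at Cox4i2 (50000 and 75000 cells), 1.74 kb at Cox6a2 (100000 cells) and 2.71 kb at Cox8b (50000 and 100000 cells), and about 20.5 kb at Cox8c. Around Cox7b2 the nearest peak lay 270 to 495 kb away, while the 11.4 kb between Cox6b2 and the nearest peak led to a strong one, of 110, 120, 111 and 133.

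The muscle and heart isoform Cox7a1 was an exception. A peak over its transcription start scored 16, 30, 16 and 38, and at 25000 cells it spanned 30183801 to 30184450 of chromosome 7. Its centre lay 45.5 to 70.5 bp from the end of Cox7a1 and at least 2808 bp from any end of another protein-coding gene. The partner in general use, Cox7a2, had no peak at its outer ends but one over its internal start on chromosome 9, with scores of 25, 30, 25 and 27. Scores of both genes thus overlapped. Ndufa4l2, an isoform known to be induced by hypoxia, had a peak inside the gene that scored 34, 22, 38 and 32 and spanned 127512651 to 127513250 of chromosome 10 at 25000 cells. A weaker gene-end peak scored 15, 10 and 11 at 50000 to 100000 cells, at an end that lies near Stac3. Its partner Ndufa4 scored 28, 29, 37 and 63. Of 8 striated muscle markers, none had a gene-end peak in every library, compared with 43.9% of all protein-coding genes. Myog, Acta1, Myh6 and Myh7 had no listed peak at an end or inside the gene, like 35.8% of all protein-coding genes. Tnnt2 and Ckm had a gene-end peak in 3 libraries, at scores of 18 to 32 and 8 to 18. With peaks inside the gene counted, Tnnt2 had one in all 4 libraries, at 32, 24, 23 and 27. Mb had only internal peaks, at 16, 17, 12 and 26. Ttn also had only internal peaks, at 9, 11 and 13 in the 25000-, 50000- and 100000-cell libraries. Of 8 male germ cell markers, all were without a listed peak at an end or inside the gene, compared with the same 35.8% of all protein-coding genes. Of the 4 vascular smooth muscle and pericyte markers, Rgs5 (16, 11, 10 and 11), Myh11 (18, 16, 19 and 19) and Pdgfrb (10, 13, 15 and 9) had a peak at an end or inside the gene in every library, and Notch3 had one in 3. Over all protein-coding genes, 54.5% had such a peak in every library. At the gene ends, Rgs5 had a peak in 2 libraries, Myh11 in 1 and the other two in none. The part of other cell types in the peak at Cox7a1 was not tested.

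**Figure D3:**
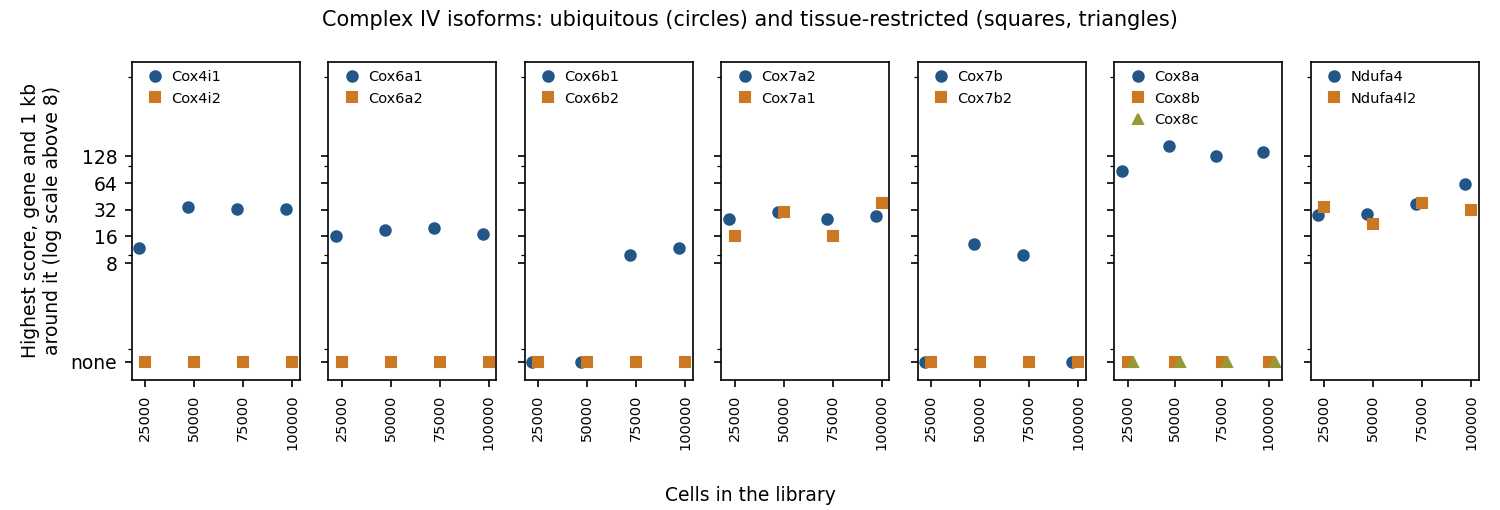
Highest peak score (y axis, linear up to 8 and log above it) at an end or inside the gene for 7 sets of complex IV isoforms in the libraries from 25000 to 100000 cells (x axis), with circles for the isoform in general use and squares or triangles for the tissue-restricted ones. Points on the line marked none have no listed peak. Cox7a1 and Ndufa4l2 are the only tissue-restricted isoforms above it.

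Among the other subunits of complex IV in general use, Cox5b, which binds zinc, scored 39, 35, 59 and 41, and Cox7c scored 30, 33, 43 and 33. Cox6c had 1 peak with a score of 9 at 50000 cells. Cox5a had a gene-end peak only at 100000 cells, with a score of 8, but a peak over its internal start scored 36, 43, 26 and 53. Cox6b1, Cox6c and Cox7b were therefore the subunits of complex IV in general use without a peak in all 4 libraries at an end or inside the gene. Cox7a2l scored 13, 31, 33 and 39.

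Promoter sequences of the genes that carry these contrasts are given from RefSeq (GRCm38.p6, the assembly of mm10). Each runs 5′ to 3′ on the strand of the gene, from 250 bases before to 50 bases after the start, in lower case. Capitals mark exact matches, on either strand, to CGCATGCG (NRF1 core), AAGATGG or AAGATGGCG (YY1), CCGGAAG (GABPA and other ETS factors), TGACGTCA (the cyclic AMP response element) or TATAAA (the TATA box). Cox8a (chr19:7217567-7217866, minus strand) and Ndufs8 (chr19:3912725-3913024, minus strand) are shown as promoters of 2 of the 3 genes with the highest mean percentile. Cox7a2 (chr9:79759804-79760103, minus strand) and Cox7a1 (chr7:30183921-30184220, plus strand) are the pair of isoforms with peaks over both starts. Cox8b (chr7:140900397-140900696, minus strand) is a muscle isoform without a peak.
Cox8a: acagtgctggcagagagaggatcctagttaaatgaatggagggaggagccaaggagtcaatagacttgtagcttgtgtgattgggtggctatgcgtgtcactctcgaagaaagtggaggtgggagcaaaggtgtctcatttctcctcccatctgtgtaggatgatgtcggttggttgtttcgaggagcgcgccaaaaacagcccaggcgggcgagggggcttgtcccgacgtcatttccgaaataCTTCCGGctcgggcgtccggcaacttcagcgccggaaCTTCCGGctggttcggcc
Ndufs8: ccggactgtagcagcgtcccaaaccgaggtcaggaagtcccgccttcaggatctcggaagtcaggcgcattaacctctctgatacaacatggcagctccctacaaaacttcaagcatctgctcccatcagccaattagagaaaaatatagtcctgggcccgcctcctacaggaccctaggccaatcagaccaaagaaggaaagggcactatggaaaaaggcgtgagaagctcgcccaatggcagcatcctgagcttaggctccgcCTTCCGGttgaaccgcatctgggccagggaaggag
Cox7a2: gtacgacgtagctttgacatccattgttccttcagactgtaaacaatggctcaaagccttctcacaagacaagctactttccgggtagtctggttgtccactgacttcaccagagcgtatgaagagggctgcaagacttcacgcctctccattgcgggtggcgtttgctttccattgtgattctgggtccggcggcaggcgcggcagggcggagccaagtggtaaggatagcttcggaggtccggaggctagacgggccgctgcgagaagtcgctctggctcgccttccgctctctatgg
Cox7a1: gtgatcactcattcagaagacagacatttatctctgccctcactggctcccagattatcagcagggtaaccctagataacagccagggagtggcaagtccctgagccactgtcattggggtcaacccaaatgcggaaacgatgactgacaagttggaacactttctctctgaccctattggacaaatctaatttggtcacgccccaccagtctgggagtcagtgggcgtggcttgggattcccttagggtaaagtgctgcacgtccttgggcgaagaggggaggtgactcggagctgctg
Cox8b: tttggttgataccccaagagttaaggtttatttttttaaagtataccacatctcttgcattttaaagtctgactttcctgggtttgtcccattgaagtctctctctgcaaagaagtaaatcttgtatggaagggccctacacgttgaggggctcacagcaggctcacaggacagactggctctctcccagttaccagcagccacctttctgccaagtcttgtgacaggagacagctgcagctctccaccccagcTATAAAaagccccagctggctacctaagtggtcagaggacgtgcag
The Cox8a promoter holds the CCGGAAG letters at 2 places, both on the opposite strand, and Ndufs8 holds them at 1. The promoter of Ndufv1, whose mean percentile equals theirs, is not printed and holds none of the marked letters. Those of Cox7a2 and Cox7a1 hold none of the marked letters. Cox8b holds TATAAA, 4 bases after the start. CpG dinucleotides numbered 19 in the Cox8a promoter, 12 in Ndufs8, 20 in Cox7a2, 7 in Cox7a1 and 2 in Cox8b. The Cox7a1 promoter thus lay under a peak in all 4 libraries, with a CpG count nearer to that of Cox8b, which had no peak, than to that of Cox7a2.

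Transcription starts were listed for 82 of the 100 members. A peak lay over a listed start in all 4 libraries at 64 of the 82 genes (78.0%), compared with 40.7% of the 17492 protein-coding genes with a listed start. The highest gene-end peak of a member covered a start in 89.9%, 91.9%, 90.4% and 90.7% of cases, compared with 76.7%, 78.9%, 78.8% and 79.1% for all protein-coding genes with such a peak and a start. The median position of its centre was -24.5, -31.5, -24.5 and -20.5 bp from the nearest start, where negative means upstream. Peak widths had medians of 650, 700, 700 and 700 bp. At 250 bp or less from the start lay the centres of 60 of 69, 65 of 74, 64 of 73 and 69 of 75 peaks. The peaks of respiratory chain genes were therefore mostly promoter peaks.

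**Figure D4:**
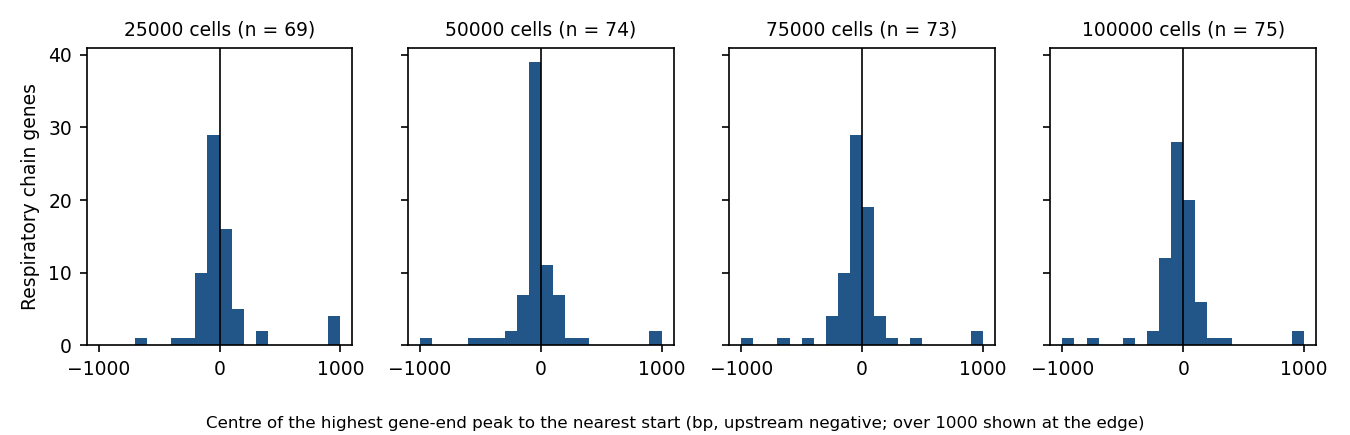
Number of respiratory chain genes (y axis) by the distance from the nearest transcription start to the centre of their highest gene-end peak (x axis, bp, upstream negative), in 1 panel per library. Most peaks lie within 250 bp of the start, and the bars at the edges hold peaks more than 1000 bp from it.

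A few members had their start elsewhere, left it uncovered or had their highest gene-end peak away from it. The starts of Cox5a, Cox7a2 and Atp5d lie 3904, 4612 and 3513 to 3553 bp inside the annotated ends. Over its internal start Atp5d, the delta subunit of the ATP synthase head, scored 33, 45, 44 and 42, above its gene-end scores of 10, 25, 17 and 14, and another internal peak reached 62, 54, 44 and 46. The highest peak lay near the far end of the gene in all libraries for Ndufb6 (29, 38, 38 and 22). Ndufb6 also had a peak over its start in every library, at 12, 19, 23 and 13, and ends of Smim27 and Topors lie in its windows. In the first 3 libraries the highest peak lay near the far end for Uqcr10 too (17, 30 and 28), which had no peak over its start at 25000 cells. At 25000 cells the highest peak of Cox6a1, with a score of 16, was centred 1157.5 bp inside the gene, and the one over its start scored 9. Ndufa13 and Atp5l had gene-end peaks throughout but none over a listed start. The nearest peak lay 20 to 70 bp from the start of Ndufa13, with scores of 15, 22, 31 and 40, and 59 to 259 bp from that of Atp5l.

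Respiratory chain genes are short and often share their ends with a neighbour. Their median annotated length was 7336 bp, compared with 17170 bp for all protein-coding genes. The end of another protein-coding gene lay within the windows of 55 members, compared with 24.8% of all protein-coding genes. Among genes with such a neighbour, 47 of 55 members (85.5%) had a gene-end peak throughout, compared with 70.0% of 5426 protein-coding genes. Among genes without one, it was 33 of 45 members (73.3%), compared with 35.3% of 16461 protein-coding genes. In windows with a neighbour, a peak cannot be assigned to the member alone. Of the 82 members with a listed start, 24 had a start of another gene on the opposite strand, running away from it, within 1 kb upstream or up to 100 bp inside. All of these but Ndufa1 and Ndufs3 had a gene-end peak throughout, a count that was not made over all protein-coding genes.

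Such a pair is formed by Atp5j, which encodes coupling factor 6 of the ATP synthase stalk, and Gabpa, which encodes a transcription factor that acts on respiratory genes. Their starts lie 148 bp apart on chromosome 16 and share a peak that scored 47, 68, 52 and 50. The RefSeq promoter of this Atp5j start (chr16:84834927-84835226, minus strand) is shown because it holds the letters of all 3 factors, each once, with the same marking by capitals.
Atp5j: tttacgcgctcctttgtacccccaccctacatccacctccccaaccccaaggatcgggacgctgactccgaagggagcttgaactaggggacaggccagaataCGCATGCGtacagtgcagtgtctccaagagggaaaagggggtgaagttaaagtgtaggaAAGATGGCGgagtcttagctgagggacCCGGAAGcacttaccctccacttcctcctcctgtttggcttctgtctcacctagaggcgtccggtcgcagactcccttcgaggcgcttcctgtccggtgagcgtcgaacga
The NRF1 core begins 147 bases before the start, AAGATGGCG 88 bases before it and CCGGAAG 61 bases before it. The other listed start of Atp5j lies 501 bp from that of Gabpa, and its promoter holds none of the marked letters. It is the one farther upstream, and so it, and not the promoter shown, enters the counts of motifs over all members. A match is a description of the letters and not evidence of binding, which was not measured.

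Across the 82 promoters, 1 per gene at the start farthest upstream, the letters of 3 factors were counted on both strands. CGCATGCG was found in 10 (12.2%), compared with 4.75% of the 7121 protein-coding genes with a peak over a start in all 4 libraries and 2.55% of all 17492 with a start. AAGATGG was found in 11 (13.4%), compared with 8.06% and 6.35% of the same groups of genes, which are given in this order for the other motifs too. CCGGAAG was found in 21 (25.6%), compared with 22.3% and 11.9%. At least 1 of the 3 was present in 37 (45.1%), compared with 31.9% and 19.3%. GGGCGG, the SP1 letters, was found in 39 (47.6%), compared with 71.0% and 46.3%. TATAAA occurred in 11.0%, compared with 5.60% and 13.3%, CCAAT in 42.7%, compared with 42.6% and 39.2%, CACGTG in 7.32%, compared with 10.8% and 7.91%, and TGACGTCA in 4.88%, compared with 4.02% and 2.33%. The looser GCATGCG, which lies within the NRF1 core, occurred in 14.6%, compared with 7.74% and 4.50%, and AAGATGGCG, which contains AAGATGG, in 8.54%, compared with 3.72% and 1.92%.

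**Figure D5:**
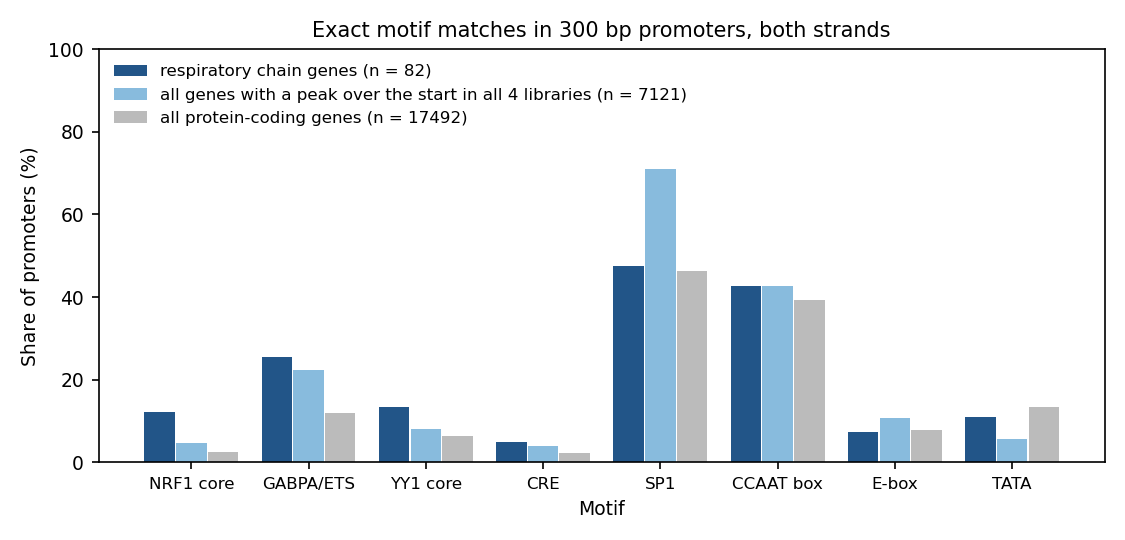
Share of 300-base promoters (y axis, percent) that hold an exact match to each motif on either strand (x axis), for the 82 respiratory chain genes, for all genes with a peak over the start in all 4 libraries and for all protein-coding genes with a listed start. The NRF1 core reaches 12.2% in the respiratory chain genes, and the SP1 letters reach 71.0% in the genes with a peak over the start and 47.6% in the respiratory chain genes.

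The promoters of the members had a median GC content of 58.5%, compared with 62.0% for protein-coding genes with a peak over the start in all 4 libraries and 56.3% for all with a start. Their median CpG ratio, observed over expected, was 0.831, compared with 0.804 and 0.577. For the 65 members in general use with a listed start it was 0.828, and for the 4 tissue-restricted isoforms with one it was 0.382. Members with a peak over a start in all 4 libraries (64) and those without (18) had medians of 0.838 and 0.781. CCGGAAG was present in 16 of the 64 and in 5 of the 18, and CGCATGCG in 8 of the 64 and in 2 of the 18. Only 6 of the 18 had no peak over a start in any library. These counts therefore do not compare members with a peak and members without one.

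The YY1 letters lay close to the start. Of 11 matches, 9 lay after the start on the strand of the gene, and those of Atp5pb and Cox7c began 2 bases before it on the opposite strand. An AAGATGG in that place occurred in 9 of 82 members (11.0%), compared with 3.03% of the protein-coding genes with a peak over a start in all 4 libraries and 1.74% of all with a start, a count made after the positions were seen. The letters contain ATG, the start codon. The stretches around these 9 matches are printed to show the bases next to the letters. Each has 8 bases to either side (fewer for Ndufb8, where the promoter window ends) and the match in capitals, on the gene's strand.
Atp5j2: aggacttcAAGATGGcgtcactc
Ndufa3: ccaagaacAAGATGGccgggagt
Ndufa9: tgtgggagAAGATGGcggccgcc
Ndufaf8: cagggcccAAGATGGcggcgccc
Ndufb8: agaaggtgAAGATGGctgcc
Ndufc1: tgcggaacAAGATGGcgccgtcc
Ndufs4: cctacaggAAGATGGcggcggtc
Ndufs6: tcaccggcAAGATGGcggcggtg
Ndufs7: ccgaggccAAGATGGcggcgctg
The first base of the match lay 10 to 38 bases after the start in these 9 genes, and the promoter window ends 50 bases after the start. In all 9 the next base is c, and in 7 it is followed by g, which gives the longer AAGATGGCG. The share of matches followed by c was not counted in other promoters. These genes had peaks of very different rank, from Ndufaf8 at a mean percentile of 97.7 to Ndufs4 at 21.2 and Ndufa9, which had a peak only at 100000 cells.

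The 10 matches to the NRF1 core were spread more widely, from 241 bases before the start at Atp5l to 31 bases after it at Uqcrc1. The core reads the same on both strands. The stretches are shown in the same way because the core and the base after it are shared across complexes I, III, IV and V.
Atp5g2: tccggccgCGCATGCGcagagcct
Atp5k: cactgcggCGCATGCGcctttctg
Atp5l: accaataaCGCATGCGcatttccc
Cox6a1: gaacggggCGCATGCGcgctctcg
Ndufa11: gcactgcgCGCATGCGcgcacgcc
Ndufa8: gctggagaCGCATGCGcagatggt
Ndufaf4: gatgtctgCGCATGCGcctgtgcg
Ndufaf5: cccgttggCGCATGCGcctaatag
Uqcr11: cgccttcaCGCATGCGctatacgt
Uqcrc1: ccgctctgCGCATGCGcagcgcgg
In all 10 the base after the core is c, and the base before it is g or a. Neither base was counted in other promoters. At the Atp5j start printed above, which is outside these 10, the base after the core is t. All 10 genes had gene-end peaks throughout, as did 80 of all 100 members and 43.9% of all protein-coding genes. A peak lay over the start in all 4 libraries at 8 of them. This held for 64 of the 82 members with a listed start and 40.7% of protein-coding genes with one. Among the 8, Uqcrc1 had the highest mean percentile, with scores of 30, 47, 30 and 36. No peak covered the start of Atp5l. At Ndufa11 the peak over the start scored 9, 47 and 17 at 25000, 50000 and 100000 cells, with none at 75000, and in all but the 50000-cell library its highest peak (41, 43 and 50) lay upstream of the start without covering it.

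Genes that serve the chain but fall outside the rule were also mostly covered. Of 38 assembly factors and cytochrome c genes, 35 had a gene-end peak in every library, compared with 43.9% of all protein-coding genes. Their median mean percentile was 79.7, compared with 79.3 for all protein-coding genes found in all 4 libraries. The highest by mean percentile were Ecsit (63, 92, 73 and 79), Lyrm7 (55, 88, 60 and 75), Foxred1 (49, 73, 65 and 67) and Bcs1l (44, 79, 66 and 73), assembly factors of complexes I and III. Cytochrome c repeated the contrast between isoforms, since the somatic gene Cycs scored 58, 48, 60 and 54 and the testis gene Cyct had no listed peak. Both were picked out after their values were seen. Of 15 genes of transcriptional regulators, 14 had a gene-end peak in every library, at a median mean percentile of 90.7, beside the same 43.9% and 79.3. Esrra, a nuclear receptor that acts with the PGC-1 coactivators, scored 118, 149, 150 and 184, Sp1 85, 144, 138 and 131, Tfb1m 105, 108, 123 and 102 and Tfb2m 56, 67, 53 and 67, the last pair being homologous mitochondrial proteins. Gabpb1 had no gene-end peak but peaks inside the gene in 3 libraries.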

How the data were processed

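For each NMuMG library the authors deposited a peak list in mm10 coordinates, in which every peak has a whole-number score. The sources used here do not say how the score is defined, how peaks were called, or whether reads were shifted for Tn5 or thinned. The submitters' processing notes name bedtools 2.17.0, Picard 1.107, SAMtools, Bowtie 0.12.8 and cutadapt, and the builds hg19 and mm10. The members and lists were chosen with earlier results of these data known.

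Gene positions and promoters came from RefSeq tables of GRCm38.p6. A gene-end peak overlaps the 1 kb to either side of an annotated end by at least 1 bp, and the highest-scoring one was kept. Percentiles are midranks within a list. The genes named are, in each class, up to 3 with the highest mean percentile, every tissue-restricted isoform with its partner, and every member without a gene-end peak in all 4 libraries, with up to 4 per other list. All others were picked after their values were seen. An item selected by this rule is not reported here. Subunit classes come from textbook knowledge, and Ndufb4b and Ndufb4c were left unclassified after the gene table was seen. Counts were set beside the same counts over all protein-coding genes, with no p-value. The overlap functions were tested on simulated data. Python 3.11.15, numpy 2.4.6 and pandas 2.3.3 were used.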

Additional observations from a re-analysis of the deposited data

How the results depend on the processing

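With windows of 500 bp or 2 kb, peak centres in place of overlaps, equal numbers of peaks per list or merged peaks, the number of the 100 members with a gene-end peak in all 4 libraries was 77 to 80. The number with no peak at an end or inside the gene, 8 as reported, was 6 with the 2 kb window. The count of members with gene-end peaks throughout fell to 53 when only peaks at or above the median score of their list were kept. The same setting left gene-end peaks throughout at 33.1% of all protein-coding genes. In that setting 15 members had no peak at an end or inside the gene, and 45 subunits in general use had a gene-end peak throughout. Among the 45 members with no end of another gene in their windows, 33 had a gene-end peak throughout, 28 of them subunits in general use and 0 of them tissue-restricted, and 5 had no peak. Cox7a1, the tissue-restricted isoform found in all 4 libraries, has an end of Capns1 in its windows. Around listed starts alone, 71 of 82 members had a peak within 1 kb in all 4 libraries and 4 had none. Leaving out each library in turn gave 80 to 83 members with a gene-end peak in all remaining libraries, 8 to 10 with no peak, and 1 to 2 tissue-restricted isoforms, the second being Ndufa4l2 without the 25000-cell library. No paired analysis was possible because each cell number has 1 library. Which libraries were sequenced more deeply is unknown, and a peak with a score near 8 can be lost from a list for that reason alone.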
